A study of Canis lupus familiaris with 77 samples.

Results

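The thymus of the beagle dog was compared with all other tissues of a microRNA (miRNA) atlas made by small RNA sequencing (miR-seq). The thymus group held the 5 libraries labelled Thymus out of 76 libraries with values, and the remaining 71 libraries came from 15 other tissues. All animals were untreated male beagles of 10 months, and organs were perfused with buffered saline before collection. The study took all tissues from the same 5 dogs, so the thymus libraries and those of the other tissues share animals. Each other tissue had 5 libraries, except colon with 4 and sciatic nerve with 2. The study's methods describe sciatic nerve RNA as pooled over animals and split, whereas its results describe 2 individual samples and a pool. Whether the 2 sciatic nerve libraries used here stand for separate animals is thus not settled. The labels give no animal number and 1 preparation type for all samples, so no batch could be formed within the thymus group. All tests treat the libraries as independent. The edgeR p-values and standard errors (SE) use, for each miRNA, a spread shared over all tissues. They do not measure the spread of the thymus libraries alone, which was among the largest of the atlas. A total of 650 miRNAs were detected, and levels are given in RPM, the reads of an miRNA scaled to a common total of miRNA reads.

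The thymus is the organ in which T lymphocytes mature. In young animals most of its cells are developing T cells, called thymocytes, which lie in a meshwork of thymic epithelial cells with connective tissue, vessels and fat around and between the lobules. miR-181a is known from immature thymocytes, where it tunes signalling through the T cell receptor. miR-150, miR-155 and miR-142 are known from lymphocytes or from leukocytes in general. The miR-17-92 cluster and its paralogs are known from dividing lymphocyte precursors and other proliferating cells.

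Reads assigned to miRNAs numbered 799796, 157871, 1753173, 3418708 and 507251 in thymus replicates 1 to 5, against 157871 to 7896424 over all 76 libraries, so replicate 2 was the shallowest library of the atlas. A count of 3 reads was worth between 0.878 RPM in replicate 4 and 19 RPM in replicate 2, and lower values cannot be told from 0 in those libraries. In all, 514 miRNAs were detected in at least 1 thymus library and 246 in all 5. The median level was above 100 RPM for 113 miRNAs. Over the atlas, 266 miRNAs had a median above 100 RPM in at least 1 tissue and are called highly expressed here.

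The 5 thymus libraries fell apart in the same way for many miRNAs. The most abundant miRNA was cfa-miR-181a in replicates 1 and 4, with 42.6% and 50% of the reads, and cfa-miR-10b in replicates 2, 3 and 5, with 27.2%, 28.3% and 31.3%. Of the 266 highly expressed miRNAs, 109 were higher in both replicates 1 and 4 than in the other 3 libraries, by more than 5-fold for 28, and 60 were lower, by more than 5-fold for 7. Since cfa-miR-181a took a large part of the reads, the count was repeated with this miRNA left out of the totals, and then 54% of the other 265 were higher and 15.8% lower. Replicate 3 was sequenced more deeply than replicate 1 and less deeply than replicate 4. This division was read from the measured levels and is not a label, so each result below is given by library, and the cause was not tested.

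Lists of miRNAs associated with cell types, though not restricted to them, were summed in each library. The T-lymphocyte list (the miR-181 family, miR-150, miR-155, miR-142, miR-342 and miR-146a, 14 detected miRNAs) held 48.1%, 5.77%, 4.74%, 55.3% and 6% of the reads in replicates 1 to 5. Most of it was cfa-miR-181a, and the median sum was higher in brain (238738 RPM) than in thymus (59968 RPM). The epithelial list (the miR-200 family, miR-203, miR-205 and the miR-183 cluster, 18 miRNAs) held 0.684%, 0.0285%, 0.028%, 0.966% and 0.0674%. Both sums were high in replicates 1 and 4. Of the highly expressed members, 9 of 12 and 10 of 11 were higher in both of these libraries than in the other 3. The order was the reverse for the sum of the fibroblast and smooth muscle list (miR-199, miR-214, miR-143 and miR-145), with 3.55%, 13.6%, 9.5%, 1.69% and 9.89%. Most of this sum was cfa-miR-143, and only 3 of the 7 highly expressed members were lower in both replicates 1 and 4 than in the others. The sum was also the reverse for the adipocyte-associated list (miR-193a, miR-193b, miR-365, miR-378 and miR-335, of which miR-378 is also known from muscle), with 1.15%, 7.48%, 6.12%, 0.577% and 5.31%. Most of it was cfa-miR-378. Of the 7 highly expressed members, 4 followed this order and 1 followed the opposite one. In whole tissue, fewer cells of a type and less RNA per cell cannot be told apart.

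**Figure D1:**
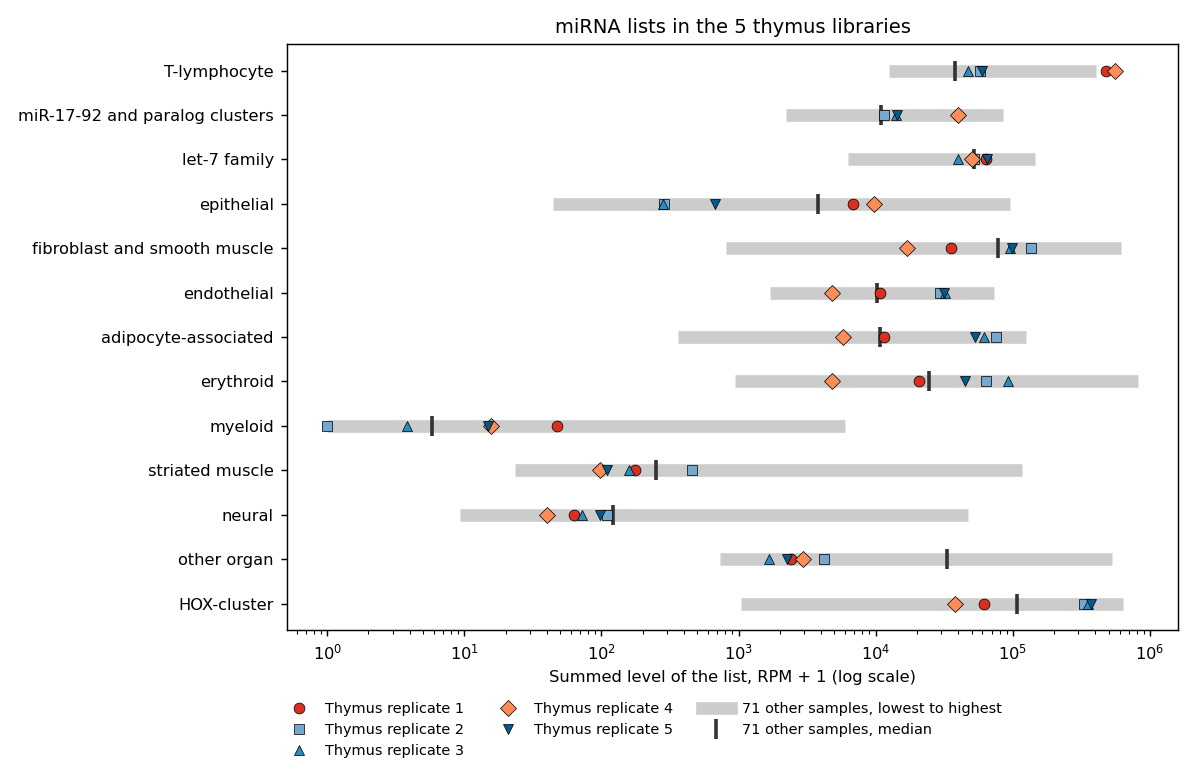
Summed level of each miRNA list in RPM + 1 on a log axis, with 1 symbol for each of the 5 thymus libraries, a grey bar from the lowest to the highest of the 71 other samples and a tick at their median. Replicates 1 and 4 lie above the other thymus libraries for the T-lymphocyte, miR-17-92 and epithelial lists and below them for the fibroblast, endothelial, adipocyte-associated, erythroid and HOX-cluster lists.

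Across miRNAs, 102 of the 480 tested were higher in thymus than in the mean of the other tissues (21.2%) and 25 were lower (5.21%), by edgeR's quasi-likelihood test with Benjamini-Hochberg adjustment at an adjusted p under 0.05. The counts of each list below are to be read beside these shares. The difference was at least 1 on the log2 scale for 86 and 18 of them. The median fitted difference of all 480 was 0.19. Levels behind these calls were often low, since only 38 of the 102 had a thymus median of at least 100 RPM and 38 had one under 10 RPM. The contrast compares log2 tissue means, each tissue weighted equally, so a miRNA that is abundant in 1 other tissue can still be called higher in thymus. For 37 of the 102 the mean RPM in thymus was below the mean RPM of the 71 other samples. In 56 of the 102 at least 1 other tissue had no library with more than 3 reads, and no fitted fold change is given for those.

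The counts depended on the thymus libraries and on the model. They were 73 and 17 without replicates 2, 3 and 5, with 47 and 8 of the original calls among them, and 76 and 54 without replicates 1 and 4, with 57 and 18. With cfa-miR-181a left out of the totals they were 74 and 40, and limma on log2(RPM + 1) gave 30 higher and 36 lower. With a variance of its own for thymus, limma gave 9 and 10.

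**Figure D2:**
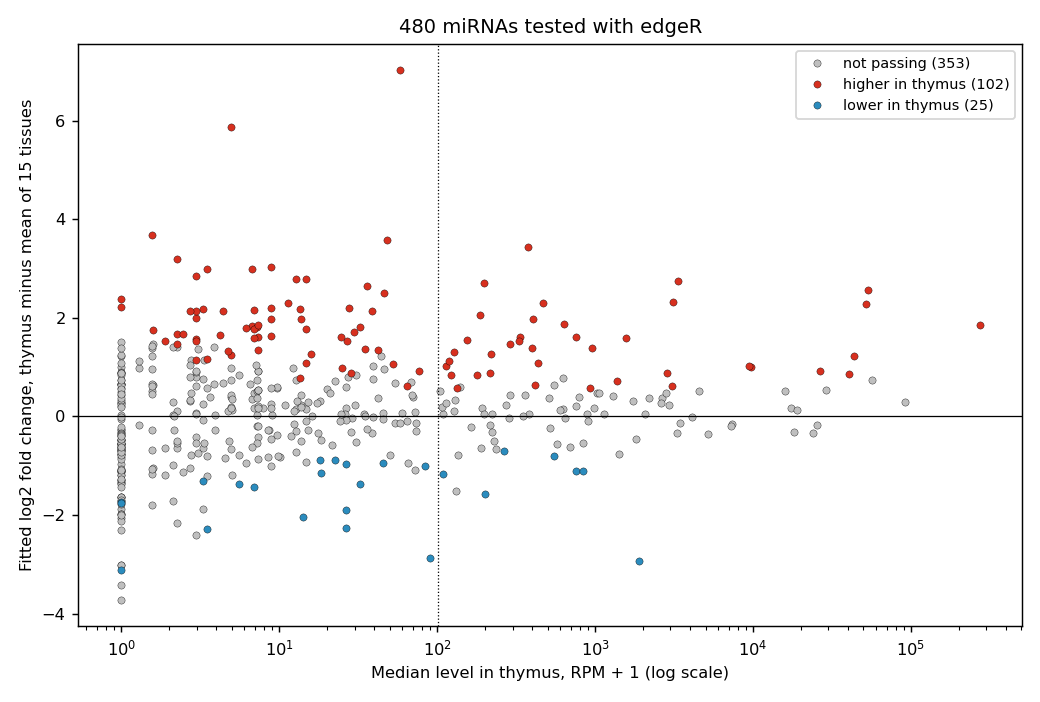
Fitted log2 difference between thymus and the mean of 15 tissues for the 480 miRNAs tested, against the median thymus level in RPM + 1 on a log axis, with a dotted line at 100 RPM. Red points (102) and blue points (25) passed the test in the higher and lower direction, and many of the red points lie at low levels to the left of the line.

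Among the T-lymphocyte miRNAs, 8 of 13 tested were higher and 2 were lower, with a median log2 difference of 1.62. The count was 8 and 2 also without replicates 2, 3 and 5, and it was 2 higher and 4 lower without replicates 1 and 4. cfa-miR-181a stood at 426312, 52264, 41991, 500018 and 53348 RPM in replicates 1 to 5, against 2034 to 372666 RPM with a median of 28555 in the other samples. Replicates 1 and 4 exceeded all 71 other samples, and the other 3 libraries were exceeded by 12 to 14 of them. The fitted difference was 2.57 ± 0.21 (SE) on the log2 scale (edgeR, adjusted p = 3.40e-16). cfa-miR-181b had the same pattern, with 28540, 2945, 3239, 27313 and 3349 RPM and a difference of 2.74 ± 0.20 (edgeR, adjusted p = 1.33e-18). The opposite strand of the miR-181a hairpin, miR-181a-3p, stood at 2299, 19, 21.1, 2044 and 47.3 RPM, and its difference was 3.57 ± 0.31 (edgeR, adjusted p = 7.98e-16).

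The other members of the miR-181 family were not called higher. cfa-miR-181c stood at 836, 1013, 673, 596 and 865 RPM, below the median of 1659 RPM of the other samples in all 5 libraries. With cfa-miR-181a left out of the totals it stood at 1458, 1069, 703, 1191 and 914 RPM, with replicates 1 and 4 the highest. The difference of cfa-miR-181c was -1.11 ± 0.31 (edgeR, adjusted p = 0.00526), and that of miR-181c-3p was -1.37 ± 0.29 (edgeR, adjusted p = 1.79e-04). The call of cfa-miR-181c was lost without replicates 2, 3 and 5 and without replicates 1 and 4. Both calls were lost when all other samples formed 1 group, and with limma using a variance of its own for thymus. cfa-miR-181d, whose gene lies beside that of miR-181c in the RefSeq annotation (UU_Cfam_GSD_1.0), had 86.3, 272, 330, 63.5 and 317 RPM and did not pass the test (0.23, edgeR adjusted p = 0.692). The levels of miR-181c thus spread far less over the thymus libraries than those of miR-181a, whose genes lie beside those of miR-181b at 2 other loci. Brain had the highest median of all 4 of these miRNAs among the other tissues, and thymus exceeded brain for cfa-miR-181b (1.00, adjusted p = 0.0232), although replicates 2, 3 and 5 lay below the lowest brain library (7550 RPM), but not detectably for cfa-miR-181a (0.71, adjusted p = 0.140).

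The leukocyte miRNAs of the list also differed widely between thymus libraries. cfa-miR-142 stood at 14022, 234, 234, 8991 and 335.14 RPM, and miR-142-3p at 2401, 0, 6.27, 1203 and 7.89 RPM. Plasma, ileum and bone marrow had the highest medians of cfa-miR-142, at 22440, 13936 and 11079 RPM. Those of colon (6463 RPM), jejunum, liver, lung, duodenum and heart (409 RPM) also lay above replicates 2, 3 and 5. The fitted difference of cfa-miR-142 was 1.62 ± 0.37 (edgeR, adjusted p = 4.38e-04), although its mean in thymus was 0.984 times that of the other samples, and it was -2.14 without replicates 1 and 4. Without replicate 1 alone it did not pass (0.85, edgeR adjusted p = 0.140). cfa-miR-150, known from mature lymphocytes, stood at 2543, 57, 113, 2689 and 197 RPM, with a difference of 2.72 ± 0.30 (edgeR, adjusted p = 1.25e-11). cfa-miR-155, an miRNA of activated lymphocytes and myeloid cells, stood at 2401, 133.02, 166, 3487 and 467 RPM, with a difference of 2.31 ± 0.29 (edgeR, adjusted p = 9.61e-10). The medians of the other samples were 153 RPM for cfa-miR-150, above replicates 2 and 3, and 144.19 RPM for cfa-miR-155, between them.

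cfa-miR-146a, an inflammation-induced miRNA, stood at 1807, 690, 618, 6208 and 950 RPM and was also called higher (1.39 ± 0.33, edgeR adjusted p = 6.67e-04). Without replicate 4 the call was lost (0.37, edgeR adjusted p = 0.565). cfa-miR-342 did not pass (-0.10, edgeR adjusted p = 0.993), with 170, 19, 20, 316 and 63.1 RPM. The granulocyte and monocyte miRNA cfa-miR-223 was at 40, 0, 2.28, 14.3 and 13.8 RPM, against a median of 3686 RPM in bone marrow. Neither of the 2 myeloid miRNAs tested passed, and their levels were under those of marrow in all 5 thymus libraries.

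**Figure D3:**
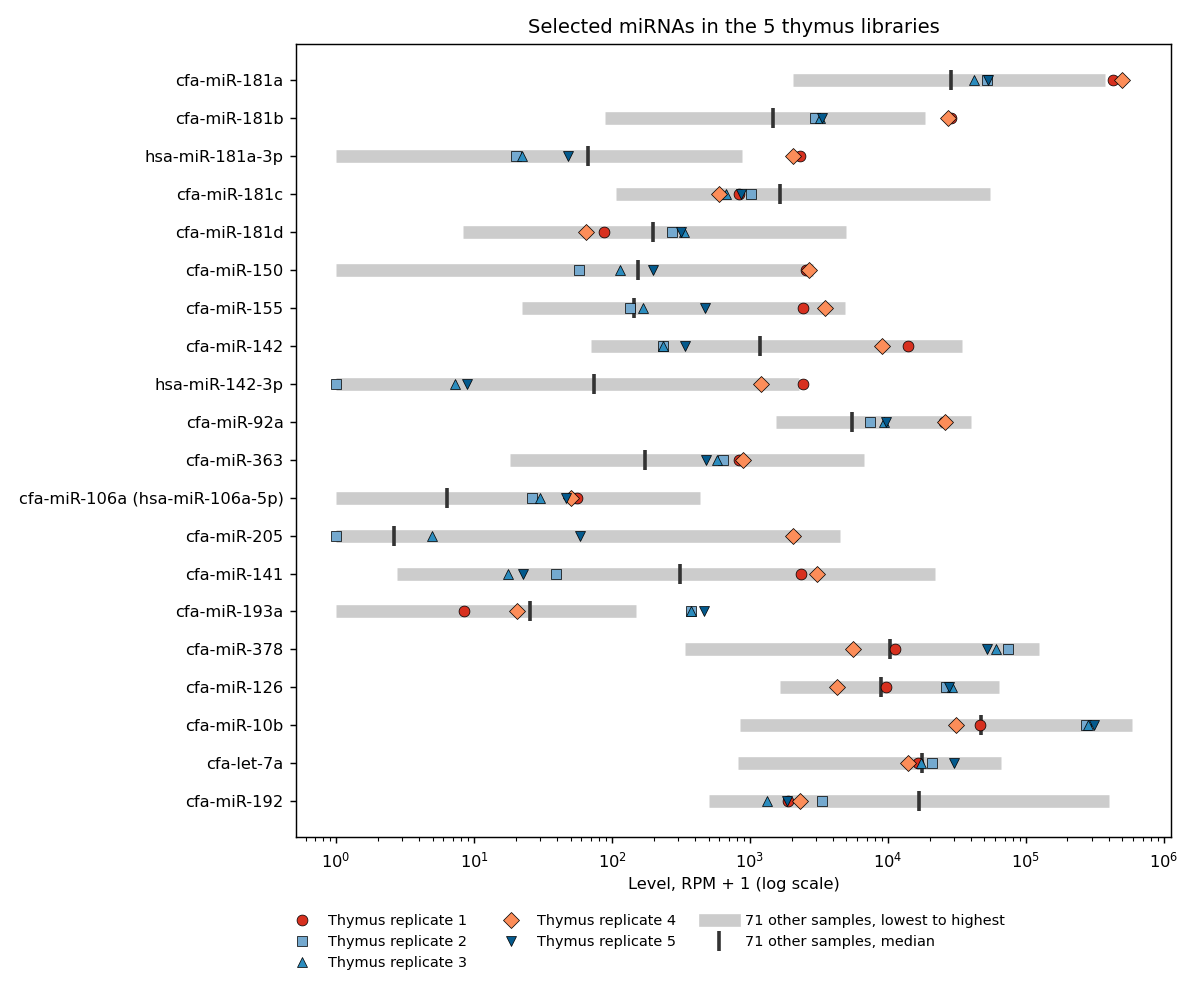
Level of 20 miRNAs in RPM + 1 on a log axis, with 1 symbol for each thymus library, a grey bar from the lowest to the highest of the 71 other samples and a tick at their median. Replicates 1 and 4 lie beyond the bar for cfa-miR-181a, cfa-miR-181b and miR-181a-3p, replicates 2, 3 and 5 lie beyond it for cfa-miR-193a, and all 5 libraries lie close together for cfa-miR-181c and cfa-miR-363.

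Of the miR-17-92 cluster and its paralogs, 8 of 19 tested were higher and none was lower, with a median log2 difference of 0.68. The count was 16 higher and 0 lower without replicates 2, 3 and 5, 3 and 4 without replicates 1 and 4, and 4 and 0 with cfa-miR-181a left out of the totals. cfa-miR-92a, which is encoded in both the miR-17-92 and the miR-106a-363 cluster, stood at 25515, 7417, 9309, 25847 and 9640 RPM, with a difference of 1.00 ± 0.22 (edgeR, adjusted p = 3.19e-04). cfa-miR-20a, of the miR-17-92 cluster, had 369, 25.3, 34.8, 344 and 67 RPM, and cfa-miR-19b had 1074, 38, 79.3, 669 and 128 RPM. Neither passed the test (edgeR, adjusted p = 0.117 and 0.633), and both were high in replicates 1 and 4 alone. cfa-miR-25, of the miR-106b-25 cluster, stood at 6967, 2059, 3073, 7803 and 2665 RPM, with a difference of 0.62 ± 0.18 (edgeR, adjusted p = 0.00777). Its call was lost without replicate 4 (0.34, edgeR adjusted p = 0.254), with cfa-miR-181a left out of the totals (0.36, edgeR adjusted p = 0.252), and without brain, skeletal muscle or testis.

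Some members of the miR-106a-363 cluster, whose genes stand side by side on chromosome X in the RefSeq annotation, stayed within a narrower range over the thymus libraries, unlike cfa-miR-92a and cfa-miR-19b, which this cluster shares with another. cfa-miR-363 stood at 824, 633, 580, 887 and 481 RPM, against a median of 172 RPM in the other samples, and its difference was 1.87 ± 0.30 (edgeR, adjusted p = 7.22e-07). The miRNA annotated with the human miR-106a-5p sequence had 55, 25.3, 29.1, 49.4 and 45.3 RPM against a median of 5.4 RPM, and cfa-miR-20b had 35, 19, 21.7, 34.8 and 57.2 RPM against 3.48 RPM. All 5 libraries lay above the median of the other samples for these 3 miRNAs. A count of 3 reads was worth 19 RPM in replicate 2. The levels of cfa-miR-20b and miR-106a-5p in that library lay at or near this limit and rest on few reads. In each case only testis had a higher tissue median, at 3992, 180.96 and 98 RPM. cfa-miR-18b, another member, stayed at 0 to 12 RPM. Reads of near-identical family members may be shared, and a second row under the name cfa-miR-106a, annotated with rat miR-17-5p, was high in replicates 1 and 4 instead (573, 44.3, 43.9, 474 and 112 RPM). Thus the 2 rows named cfa-miR-106a had different patterns over the thymus libraries.

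Some miRNAs outside the lists were also high in replicates 1 and 4. cfa-miR-128, best known from neurons, stood at 3742, 184, 188, 5216 and 402 RPM, with a difference of 1.97 ± 0.26 (edgeR, adjusted p = 2.96e-09). cfa-miR-130b stood at 635, 12.7, 26.8, 445 and 17.7 RPM, with a difference of 2.19 ± 0.29 (edgeR, adjusted p = 3.12e-09), and its RefSeq neighbour miR-301b at 221, 0, 2.28, 132.51 and 1.97 RPM. Replicates 1 and 4 exceeded all 71 other samples for cfa-miR-130b, whereas 45 to 58 of those samples exceeded each of replicates 2, 3 and 5. The let-7 family, known from differentiated cells, had no member called higher and only let-7a-3p, under 10 RPM in thymus, called lower among 13 tested. cfa-let-7a stood at 16555, 20909, 17278, 14023 and 29948 RPM, around the median of 17687 RPM of the other samples.

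Epithelial miRNAs were detected in replicates 1 and 4 and were mostly low in the other libraries. cfa-miR-205, known from stratified epithelia and thymic epithelium, stood at 2064, 0, 3.99, 2049 and 57.2 RPM. With 3 reads worth 19 RPM in replicate 2, the 0 there is a limit of depth. Among the other samples only 2 testis libraries came near or above replicates 1 and 4, at 2028 and 4495 RPM, and the highest tissue medians were 415 RPM in testis and 90 RPM in lung. Several other tissues had no library with more than 3 reads, so no fitted fold change is given. The mean in thymus was 7.24 times the mean of the other samples, and an exact two-sided rank-sum test of the 5 libraries against the 71 others did not pass (p = 0.0928, adjusted p = 0.668).

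Some miRNAs of the miR-200 family and the miR-183 cluster, known from epithelia, followed the same order. The rows named cfa-miR-200a, cfa-miR-200b and cfa-miR-96 were near 0 in all thymus libraries. Arms counted under the human names miR-200a-3p and miR-200b-3p are rows of their own, and neither was called in either direction. cfa-miR-141 stood at 2321, 38, 16.5, 3055 and 21.7 RPM, and cfa-miR-200c, its RefSeq neighbour, at 175, 12.7, 3.99, 265 and 9.86 RPM. Pancreas had median levels of 16612 and 1834 RPM of these miRNAs. cfa-miR-182 stood at 1717, 133.02, 114, 3556 and 290 RPM. Of the 15 epithelial miRNAs tested, only cfa-miR-205 was called higher. cfa-miR-203, an miRNA of keratinising epithelium, was called lower, with 37.5, 12.7, 13.1, 33.1 and 11.8 RPM against a median of 118 RPM (-2.03 ± 0.57, edgeR adjusted p = 0.00512).

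Adipocyte-associated miRNAs were high in replicates 2, 3 and 5, and 5 of 8 tested were called higher, with a median log2 difference of 1.49. None was called without replicates 2, 3 and 5. cfa-miR-193a, a relative of the brown fat miRNA miR-193b, stood at 7.5, 374, 373, 19.6 and 461 RPM. Replicates 2, 3 and 5 exceeded all 71 other samples, which reached at most 147 RPM, and replicates 1 and 4 lay below the median of 24.4 RPM. The fitted difference was 3.43 ± 0.40 (edgeR, adjusted p = 8.17e-11), and it was -0.93 without replicates 2, 3 and 5. It was the only highly expressed miRNA with its highest tissue median in thymus, 373 RPM, followed by sciatic nerve at 99.7 RPM and heart at 57.1 RPM. The libraries of thymus overlapped those of sciatic nerve and heart. The thymus median was 2.53 times the highest other sample, and this was the largest such ratio of the 266 highly expressed miRNAs.

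Further miRNAs of the list followed cfa-miR-193a. cfa-miR-378, which lies in an intron of the mitochondrial co-activator gene PPARGC1B, stood at 11242, 73560, 60222, 5621 and 51826 RPM, with a difference of 2.28 ± 0.29 (edgeR, adjusted p = 2.59e-09). cfa-miR-365 stood at 78.8, 323, 290, 59.7 and 329 RPM (1.46 ± 0.29, edgeR adjusted p = 4.58e-05). The 3p arm of its RefSeq neighbour miR-193b, counted under the rat name miR-193b-3p, stood at 60, 469, 331, 40.1 and 440 RPM (1.52 ± 0.36, edgeR adjusted p = 6.04e-04). These levels were within the range of liver, heart and skeletal muscle, where the highest other medians were found. Without replicates 2, 3 and 5 the fitted differences of cfa-miR-378, cfa-miR-365 and miR-193b-3p were -0.25, -0.42 and -1.12. The miR-193a-3p arm was low in all libraries, at 50, 12.7, 7.99, 8.78 and 7.89 RPM. A separate row named cfa-miR-193b was called higher too, at only 0 to 15.8 RPM in thymus with a median of 6.27 RPM.

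Some miRNAs of vessels, connective tissue and blood were also highest in replicates 2, 3 and 5. cfa-miR-126, of the endothelial gene EGFL7, stood at 9684, 26541, 29193, 4287 and 27897 RPM, with a difference of 0.92 ± 0.25 (edgeR, adjusted p = 0.0028), and lung had a higher median of 46480 RPM. Both endothelial miRNAs tested were called higher, and neither was without replicates 2, 3 and 5. The call of cfa-miR-126 was also lost without replicate 3 alone (0.69, edgeR adjusted p = 0.0589). cfa-miR-143, an miRNA of smooth muscle and fibroblasts, stood at 32851, 132995, 92135, 15742 and 94576 RPM and did not pass (0.30, edgeR adjusted p = 0.619). None of the 9 fibroblast and smooth muscle miRNAs tested was called in either direction. The red cell miRNA cfa-miR-486 stood at 17092, 61880, 91060, 4498 and 43525 RPM (1.22 ± 0.43, edgeR adjusted p = 0.0249), and it was the only one of 4 erythroid miRNAs called. The call of cfa-miR-486 was lost without replicate 2 (1.19, edgeR adjusted p = 0.0552) or replicate 3 (0.62, 0.411), with cfa-miR-181a left out of the totals (1.09, 0.0621), and without any one of colon, ileum, jejunum, kidney, pancreas or testis. cfa-miR-451, a more erythroid-restricted miRNA, did not follow it, with 3306, 1812, 1407, 269 and 1388 RPM.

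The miRNAs of the HOX gene clusters, which mark position along the body axis, took a larger share of reads in replicates 2, 3 and 5 than in replicates 1 and 4. Their sum was 6.19%, 32.8%, 35.2%, 3.78% and 37.2% of reads in replicates 1 to 5, most of it cfa-miR-10b. cfa-miR-10b stood at 46591, 271646, 283447, 30954 and 313113 RPM, with a difference of 1.85 ± 0.33 (edgeR, adjusted p = 7.38e-06). With cfa-miR-181a left out of the totals it stood at 81213, 286626, 295870, 61910 and 330759 RPM, and replicates 1 and 4 were the lowest on that scale too. cfa-miR-193a stood at 13.1, 394, 389, 39.2 and 487 RPM on that scale, in the same order. Kidney had a higher median of cfa-miR-10b than thymus, at 445638 RPM. Of the 7 HOX-cluster miRNAs tested, 3 were called higher (cfa-miR-10b, miR-10b-3p and cfa-miR-196b), and 1 without replicates 2, 3 and 5. cfa-miR-196b went the other way over the libraries, at 168, 0, 1.14, 151 and 13.8 RPM.

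Among the most changed miRNAs outside the lists, cfa-miR-127 and cfa-miR-411, both of the imprinted DLK1-DIO3 locus, were higher in thymus. cfa-miR-127 stood at 803, 3110, 7817, 547 and 4422 RPM (2.33 ± 0.42, edgeR adjusted p = 1.21e-05), and cfa-miR-411 at 501, 760, 1211, 215.87 and 891 RPM (1.61 ± 0.41, edgeR adjusted p = 0.00155). Brain had far higher medians, 44471 and 9113 RPM. The other strand of the miR-30a hairpin, miR-30a-3p, stood at 298, 1565, 1614, 180 and 2220 RPM (1.58 ± 0.26, edgeR adjusted p = 2.12e-06). These miRNAs were highest in replicates 2, 3 and 5 as well.

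Among the 25 miRNAs lower in thymus, 5 belonged to the muscle, neural and other organ lists. cfa-miR-192, an miRNA of intestine, liver and kidney, stood at 1892, 3345, 1324, 2284 and 1841 RPM against a median of 16762 RPM and a jejunum median of 302243 RPM (-2.93 ± 0.49, edgeR adjusted p = 2.12e-06). cfa-miR-194, which is made from the same clusters, stood at 98.8, 158, 47.9, 82.2 and 88.7 RPM (-2.87 ± 0.54, edgeR adjusted p = 2.22e-05). All 5 thymus libraries were low for both, with no division between replicates. Medians of cfa-miR-192 were lower still in bone marrow, sciatic nerve, heart and skeletal muscle (1676, 1346, 1046 and 787 RPM). Those of cfa-miR-194 were lower in plasma, sciatic nerve, brain, heart and skeletal muscle (73.5, 56, 50.9, 36.6 and 25.8 RPM). Against single tissues, thymus passed as lower only against gut tissues, liver, kidney and pancreas, and for cfa-miR-192 also plasma. cfa-miR-31 (-2.26 ± 0.51, edgeR adjusted p = 3.36e-04) and cfa-miR-338, known from oligodendrocytes and Schwann cells (-1.90 ± 0.48, edgeR adjusted p = 0.0017), were also lower. cfa-miR-338 stood at 7.9 to 31.3 RPM in thymus and at a median of 1811 RPM in sciatic nerve.

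cfa-miR-29c and cfa-miR-29a, which target collagen transcripts, were lower as well (-1.17 ± 0.36 and -0.81 ± 0.26, edgeR adjusted p = 0.00983 and 0.0129). cfa-miR-29a stood at 1130, 469, 428, 862 and 552 RPM against a median of 1130 RPM. cfa-miR-101 stood at 2772, 754, 506, 1319 and 631 RPM against 2068 RPM (-1.10 ± 0.33, edgeR adjusted p = 0.00905). For these 3 miRNAs, replicates 2, 3 and 5 were the lowest thymus libraries. Their calls changed with single libraries. That of cfa-miR-29a was lost in 38 of 103 alternatives, among them those without replicate 2 (-0.68, edgeR adjusted p = 0.0633) or 3 (-0.59, 0.141) and many without 1 sample of another tissue. cfa-miR-29c lost its call in 9, among them those without replicate 3 (-0.91, edgeR adjusted p = 0.108) or 5 (adjusted p = 0.0530), and cfa-miR-101 in 9, among them that without replicate 3 (-0.78, edgeR adjusted p = 0.138).

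Markers of other organs were low in all 5 thymus libraries. The striated muscle list summed to 176, 456, 157, 95.9 and 108 RPM against a median of 92211 RPM in heart, and the neural list to 62.5, 108, 71.3, 39.2 and 96.6 RPM against 43047 RPM in brain. In each list 1 miRNA was called lower, cfa-miR-499 of 9 tested and cfa-miR-338 of 10. Of 18 tested miRNAs of liver, gut, pancreas, airway and testis, 2 were higher (cfa-miR-122 and cfa-miR-449a) and 3 lower (cfa-miR-192, cfa-miR-194 and cfa-miR-375). Over all 480 tested, 21.2% were higher and 5.21% lower. The liver miRNA cfa-miR-122 stood at 10, 120, 34.2, 3.8 and 13.8 RPM against 22008 RPM in liver. It was called higher in thymus, and its median over all other samples was 1.37 RPM.

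The criteria of tissue enrichment, as applied here, gave no miRNA for thymus. A miRNA was taken as tissue enriched (TE) when its mean RPM exceeded that of all other samples more than 5-fold and the exact two-sided rank-sum test passed at an adjusted p under 0.05. The fold exceeded 5 for 4 of the 266 highly expressed miRNAs, cfa-miR-193a (8.30), miR-181a-3p (7.58), cfa-miR-205 (7.24) and cfa-miR-181b (5.41). Their adjusted rank-sum p-values were 0.668, 1, 0.668 and 0.183. By this test 0 of 266 passed (0% in either direction), 27 had an unadjusted p under 0.05, and edgeR called 102 and 25 of its own 480. The smallest adjusted p was 0.0541, for cfa-miR-363, followed by 0.0666 for the miRNA annotated as human miR-106a-5p, both of the X-linked cluster. Adjusted over the 266 alone, the smallest was 0.0221, with RPM scaled by TMM 0.0358, and thinned to the smallest library 0.0485, and none of these gave a TE miRNA. The smallest p that this test can give for 5 libraries against 71 is 1.08e-07. It is reached only when all 5 lie beyond all 71 others. It does not tell whether groups of this size could detect a partial separation.

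No miRNA was highly tissue enriched (HTE, median above 5 times the highest other sample, or shared with 1 other tissue alone), and none had all 5 thymus libraries above, or all below, the 71 others. Without replicates 2, 3 and 5 there were 6 TE miRNAs (cfa-miR-181a, cfa-miR-181b, miR-181a-3p, cfa-miR-130b, miR-130b-5p and cfa-miR-301b) and 7 without overlap, and without replicates 1 and 4 there was 1 of each, cfa-miR-193a. These counts describe libraries chosen by their levels and are no test of the thymus.

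**Figure D4:**
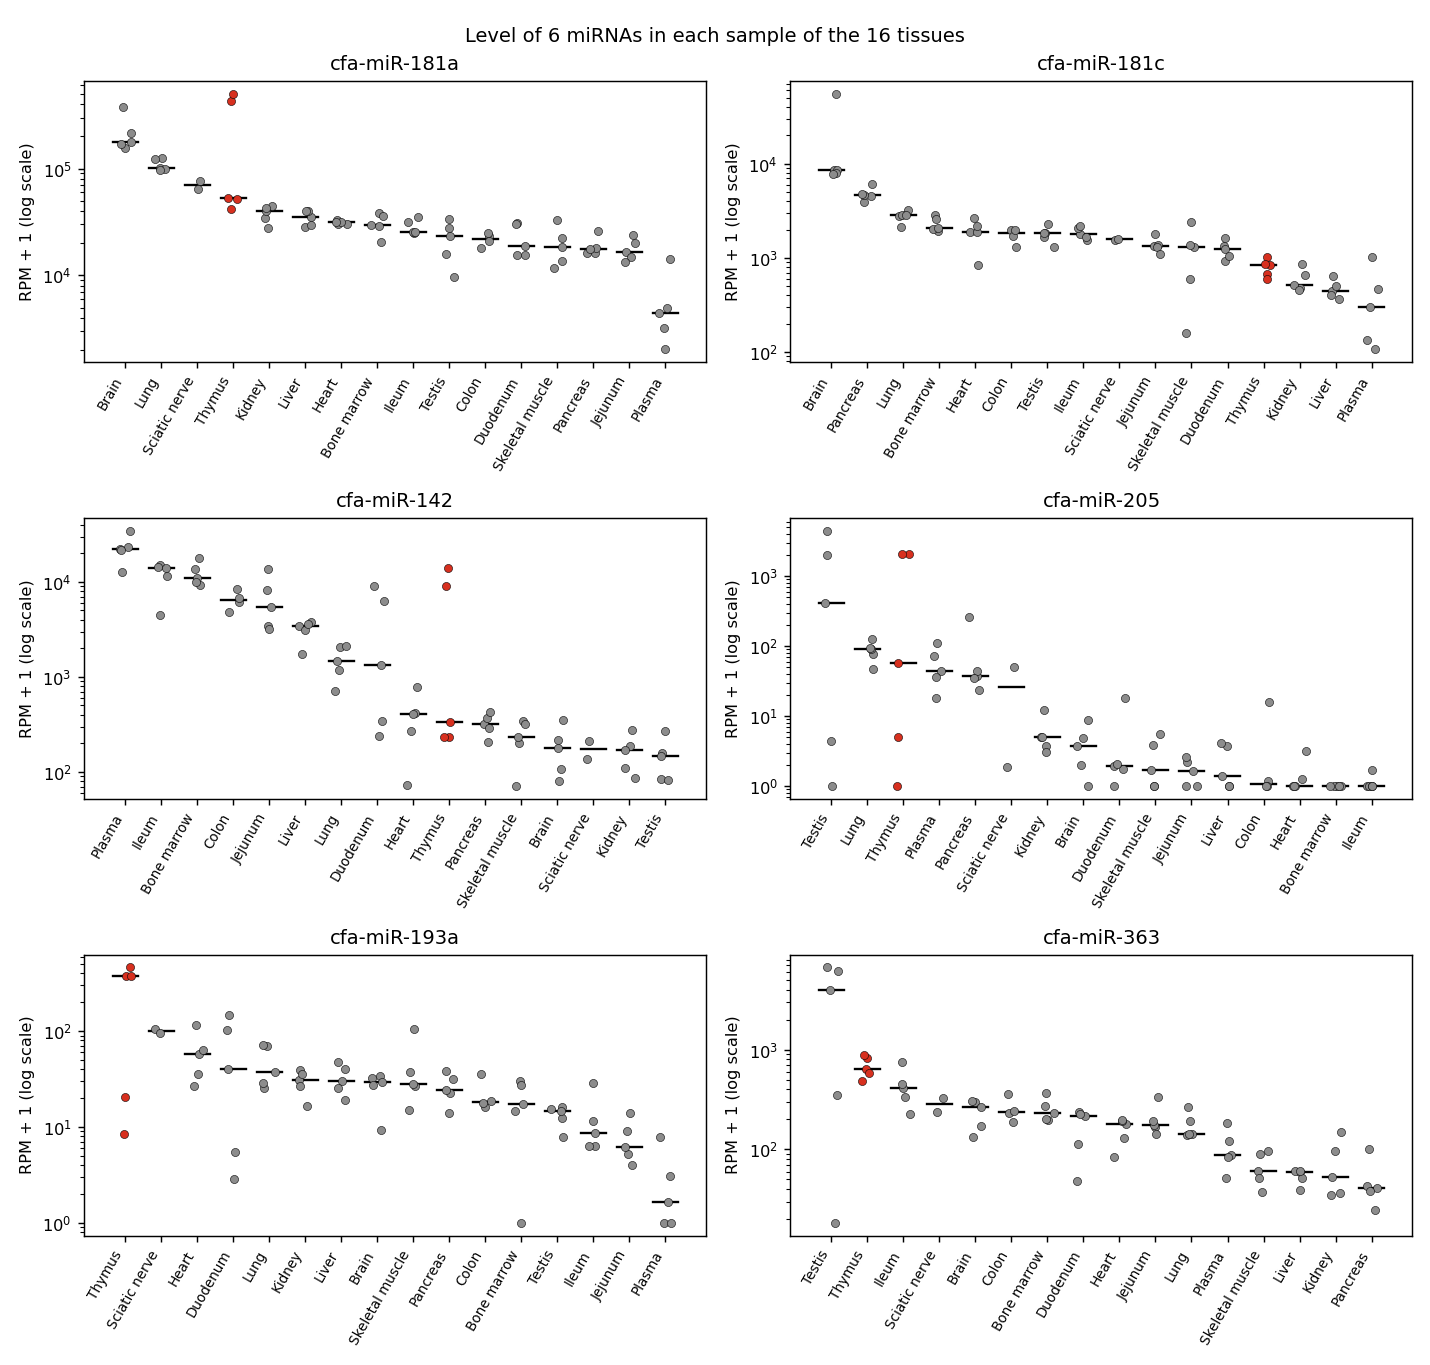
Level in RPM + 1 on a log axis of 6 miRNAs in each sample, with tissues ordered by their median (black line) and thymus in red. The thymus points spread over more than 10-fold for cfa-miR-181a, cfa-miR-142, cfa-miR-205 and cfa-miR-193a and lie close together for cfa-miR-181c and cfa-miR-363, where testis alone has a higher median for cfa-miR-363.

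Against single tissues, the share of the 480 miRNAs called higher in thymus ran from 9.17% for duodenum to 29.8% for plasma, and the share called lower from 10.2% for bone marrow to 34% for brain (edgeR, adjusted over all 15 contrasts together). These contrasts share the thymus libraries. No miRNA was higher or lower than in all 15 tissues. cfa-miR-181a and miR-181a-3p were higher than in 14 tissues, all but brain. cfa-miR-181b was higher than in 14, all but sciatic nerve, and cfa-miR-205 than in 14, all but testis. These calls compare fitted tissue means. Replicates 2, 3 and 5 lay below every lung library for cfa-miR-181a (lowest 96517 RPM) and cfa-miR-181b (lowest 4245 RPM). For miR-181a-3p they stood at 19 to 47.3 RPM, below the median of 65.6 RPM of the other samples. For cfa-miR-205 the thymus median of 57.2 RPM was below that of lung, 90 RPM. cfa-miR-363 was higher than in 12 tissues, not in ileum and sciatic nerve, and was lower than in testis. In total 22 miRNAs were higher than in at least 10 tissues, and let-7a-3p and miR-181c-3p were lower than in at least 10.

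Against bone marrow, the other organ of lymphocyte formation, the miRNAs of the T-lymphocyte list divided. cfa-miR-181a was higher in thymus. cfa-miR-181b (2.82, edgeR adjusted p = 1.04e-08) and cfa-miR-150 (1.98, 0.00301) were higher as well. For cfa-miR-150, replicates 2 and 3 lay below the lowest marrow library (154 RPM). cfa-miR-142 (-1.15, edgeR adjusted p = 0.129) and cfa-miR-155 (1.21, 0.0504) did not pass, and cfa-miR-181c was lower (-1.1, 0.0216). cfa-miR-92a, of the miR-17-92 list, was also higher (2.64, edgeR adjusted p = 1.07e-08).

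Over all 650 miRNAs, the single sample most like each thymus library was another thymus library, whereas by the mean over a tissue's samples another tissue came first for each of them. Spearman correlations between pairs of them ran from 0.785 to 0.937, with 0.937 between replicates 1 and 4, 0.907 between replicates 3 and 5 and at most 0.871 for replicate 2. The closest samples of other tissues reached 0.910, 0.859, 0.893, 0.914 and 0.894 with replicates 1 to 5. Replicate 1 had its highest mean correlation with lung (0.895) and replicate 4 with ileum (0.898), and the other thymus libraries came 7th and 9th in their order of tissues. Replicates 2, 3 and 5 had their highest mean with the sciatic nerve libraries (0.838, 0.891 and 0.878), with thymus in the second place. These correlations are across miRNAs, which are not replicates, and share the depth of each library.

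**Figure D5:**
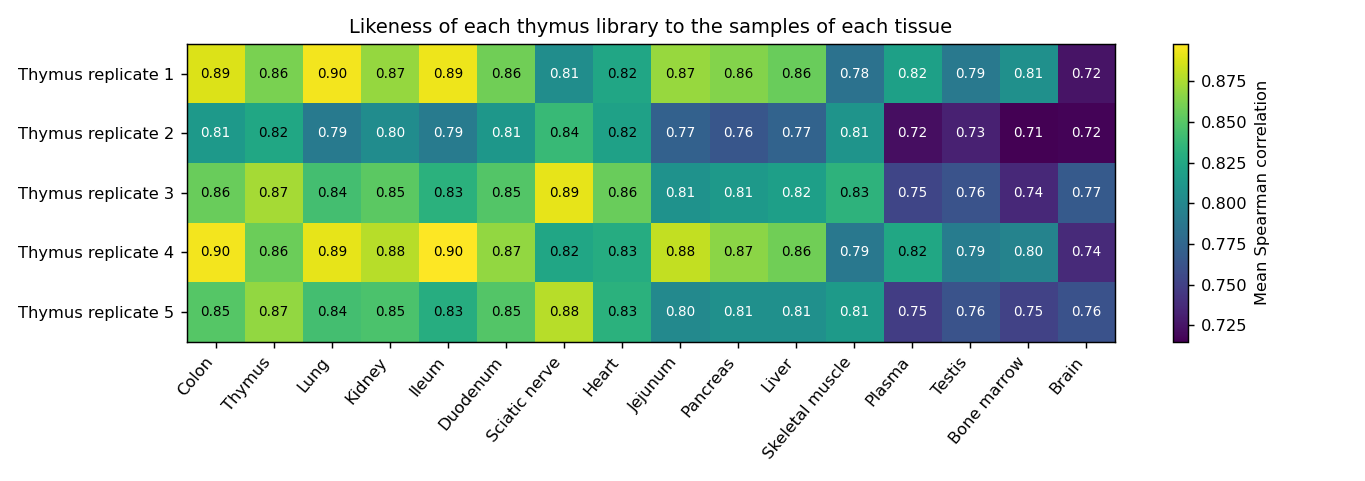
Mean Spearman correlation over 650 miRNAs between each thymus library and the samples of each tissue, with tissues ordered from left to right by the mean of the column. Replicates 1 and 4 have their highest values with lung, ileum and colon, and replicates 2, 3 and 5 with sciatic nerve.

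The spread between thymus libraries was among the largest of the atlas. The median SD of log2(RPM + 1) over the 266 highly expressed miRNAs was 0.961 in thymus, second to skeletal muscle (1.09) among the 15 tissues with at least 4 libraries. Liver had the smallest, 0.364. Leaving out any 1 thymus library moved the value between 0.847 and 0.990.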

How the data were processed

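TruSeq small RNA libraries were made from RNA of frozen tissue sections, except plasma and bone marrow, whose RNA was isolated by other protocols. Per the study's methods, the authors clipped adaptors, aligned reads to the dog genome (CanFam3.1) with OSA without mismatches, discarded reads with more than 10 locations and counted reads overlapping at least 70% of a dog, rat or human miRNA locus with bedtools. The deposited table holds the authors' raw count per miRNA and sample and the RPM the authors computed from it. RPM recomputed from the counts and deposited totals differed by at most 2.89e-09 of the value. Summed counts exceeded the deposited totals by 0.0449% to 1.16%. miRNAs not listed for a sample were taken as 0. One labelled colon sample had no values, and 1 sample name in the table matched no label, and both were left out.

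edgeR 4.0.16 in R 4.3.3 was fitted to the counts of 76 libraries with a mean per tissue, TMM factors and its filter on low counts, which left 480 miRNAs. limma 3.58.1, DESeq2 1.42.0 and scipy 1.17.1 were used for alternatives and correlations. The exact rank-sum test used midranks, with Benjamini-Hochberg adjustment over 650 miRNAs. Values given with ± SE are log2 differences, thymus minus the mean of the other tissues. Scripts were tested on simulated data. miRNAs named are those of the marker lists, the 15 largest changes in each direction past the test, the 10 highest in thymus and miR-193a, miR-106a and miR-205, which the study lists for thymus. cfa-miR-130b and cfa-miR-301b were chosen after their values were seen. The members, lists and tests were chosen with earlier results of these data known. Read limits cover counting error only. Alternatives were other normalisations, filters, models, pseudocounts, thinning to 158069 reads and leaving out samples or tissues.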

Additional observations from a re-analysis of the deposited data

Results flagged for a closer look

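Screening 50 values over the 5 thymus libraries for a single library far from the others found 2, and chance alone gives about 1 in 20 of such groups. cfa-miR-146a stood at 6208 RPM in replicate 4 and at 618 to 1807 RPM in the others, a gap of 0.787 of the range. The summed striated muscle miRNAs stood at 456 RPM in replicate 2, the shallowest library, and at 95.9 to 176 RPM in the others, a gap of 0.777 of the range.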

How the results depend on the processing

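No paired analysis was possible because the labels carry no animal number, although the study took all tissues from the same 5 dogs. All fits and tests treat the libraries as independent. The counts of 102 miRNAs higher and 25 lower depended on the model: 5 and 0 when all other samples formed 1 group, 30 and 36 with limma, 9 and 10 with a thymus variance of its own, 10 lower with library totals alone, 13 lower without a filter, 40 lower without cfa-miR-181a in the totals. The shift in the median of all miRNAs ran from -0.63 to 0.41 over these settings and those leaving out a tissue. Leaving out samples or tissues gave at least 77 higher and 11 to 45 lower, the 11 without thymus replicate 3, the 45 without skeletal muscle and 41 without sciatic nerve. There were 14 to 16 lower without thymus replicate 5, the tissues heart, liver or lung, or the single samples bone marrow 4, colon 3, heart 3, jejunum 2, kidney 5, liver 2, pancreas 1 or 4, plasma 3, 4 or 5, sciatic nerve 1 or 2, or skeletal muscle 2 or 3. Settings on the thymus libraries and on cfa-miR-181a and the variance were chosen after seeing the data. Without replicates 1 and 4 there were 54 lower, and fitted differences turned to -0.95 (miR-181a-3p), -0.08 (cfa-miR-150), -2.14 (cfa-miR-142), -3.36 (miR-142-3p), -0.64 (cfa-miR-128), -0.80 (cfa-miR-130b) and -0.58 (cfa-miR-106a, rat miR-17-5p). Without replicates 2, 3 and 5 they turned to -0.93 (cfa-miR-193a), -0.42 (cfa-miR-365), -0.25 (cfa-miR-378), -1.12 (miR-193b-3p), -0.83 and -0.79 (cfa-miR-126 and miR-126-3p), -0.71 (cfa-miR-10b), -0.98 (miR-30a-3p), -0.37 (cfa-miR-30a), -1.13 (cfa-miR-486) and -0.38 (cfa-miR-127). With 1 group of other samples, cfa-miR-142 was -0.38, cfa-miR-25 -0.20, cfa-miR-486 -1.47 and cfa-miR-411 -0.06, and with both limma fits miR-142-3p was -0.45. The cause was not tested. Of 36 miRNAs followed, cfa-miR-181a and cfa-miR-181b kept their direction and call in every setting in which they were fitted. The criteria gave 0 TE, HTE and non-overlapping miRNAs in all settings except the omission of replicates 2, 3 and 5 (6 TE and 7 without overlap) and of 1 and 4 (1 and 1). The smallest adjusted rank-sum p ran from 0.019 to 0.316 when single samples were left out, so the absence of a rank-sum call depended on them, and it was 0.0358 with TMM scaling and 0.0221 when adjusted over highly expressed miRNAs. The calls against single tissues and the correlations moved little. The spread was 0.606 with a pseudocount of 10 RPM. Replicate 2, with 157871 reads, limits what can be said of miRNAs under 19 RPM.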
